A study of Mus musculus with 3 samples.

Results

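The visinin-like and NCS1 calcium sensor genes Vsnl1, Hpcal4, Hpca, Ncald, Ncs1 and Hpcal1 were followed in RNA pulled down with tagged ribosomes from mouse cerebral cortex. They were chosen by symbol, as relatives of the KChIP genes, and all 6 were among the 32531 genes of the count tables. The 3 libraries form 1 group, Kcnip2-TRAP IP, from adult, untreated mice of the C57BL/6J strain that carry the Kcnip2-EGFP/Rpl10a transgene (line NIDA115). In such a line a fluorescently tagged ribosomal protein is made in cells that use Kcnip2 regulatory sequences, and an antibody to the tag pulls down their ribosomes with bound mRNA (translating ribosome affinity purification, TRAP). All 3 libraries are such immunoprecipitates, numbered as replicates 1 to 3. Input, unbound and wild-type libraries were not analysed here, so levels within the immunoprecipitate are given and enrichment is not. The labels do not say whether the libraries came from separate animals, so the spread between them may be technical.

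Neuronal calcium sensors are small EF-hand proteins that bind calcium through helix-loop-helix motifs and then change their contact with membranes and target proteins. Most of them carry a myristoyl fatty acid on the glycine that follows the initiator methionine, and in several of them calcium binding exposes this lipid, the calcium-myristoyl switch. The visinin-like branch holds VILIP-1 (Vsnl1), VILIP-2 (Hpcal4), VILIP-3 (Hpcal1), hippocalcin (Hpca) and neurocalcin delta (Ncald). NCS1, the mammalian counterpart of fly frequenin, lies outside that branch, and the KChIPs are a further branch that binds Kv4 potassium channels.

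The start of each coding sequence is shown because it holds the myristoylation glycine. The first 10 codons are from GENCODE M21 transcripts on GRCm38, the assembly that mm10 names, 5′ to 3′, with the glycine codon in capitals.
Vsnl1: atgGGGaaacagaatagcaaactggcccca
Hpcal4: atgGGGaaaaacaacagcaagctggccccc
Hpca: atgGGCaagcagaacagcaagctgcggcca
Ncald: atgGGGaaacagaacagcaagctgcgccct
Ncs1: atgGGGaaatccaacagcaagttgaagcct
Hpcal1: atgGGCaagcagaacagcaagctgcgtcct
All 6 sequences had a glycine codon directly after the start codon. A further stretch shows how alike the genes are where the proteins bind calcium. It covers the first EF-hand loop that matches the PROSITE pattern, coding bases 217 to 252 in each gene, and capitals mark bases that differ from Hpca.
Hpca: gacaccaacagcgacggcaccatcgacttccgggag
Hpcal1: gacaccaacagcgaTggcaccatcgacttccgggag
Hpcal4: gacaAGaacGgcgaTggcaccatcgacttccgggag
Vsnl1: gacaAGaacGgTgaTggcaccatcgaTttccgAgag
Ncald: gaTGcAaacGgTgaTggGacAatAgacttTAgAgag
Ncs1: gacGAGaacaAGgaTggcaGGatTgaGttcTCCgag
Hpcal1 differed from Hpca at 1 of these 36 bases, Hpcal4 at 4, Vsnl1 at 7, Ncald at 12 and Ncs1 at 13.

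The proteins are of nearly the same size, between 190 residues for NCS1 and 193 for hippocalcin, neurocalcin delta and VILIP-3, and each had 3 matches to the EF-hand pattern. Hippocalcin and VILIP-3 were the most alike, with 93.8% of residues identical. VILIP-1 and VILIP-2 shared 89.5%, VILIP-3 and neurocalcin delta 89.6%, and hippocalcin and neurocalcin delta 88.1%. NCS1 shared 56.1% to 58.9% with each of the others. Of the coding sequences, those of Hpca and Hpcal1 were the most alike, at 86%. Coding identity was 82.4% for Vsnl1 and Hpcal4, 80.1% for Ncald and Hpcal1, and 79.9% for Hpca and Ncald, each below the protein identity of that pair, while coding identity with Ncs1 was 64.3% to 66.1%, above that of the proteins. The longest identical run between any pair of the 6 was 46 bases (Hpca and Ncald). No stretch of 50 bases of the longest coding transcript of 1 gene was found in another of the 6, so reads that align over a longer stretch can be told apart between them.

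**Figure D1:**
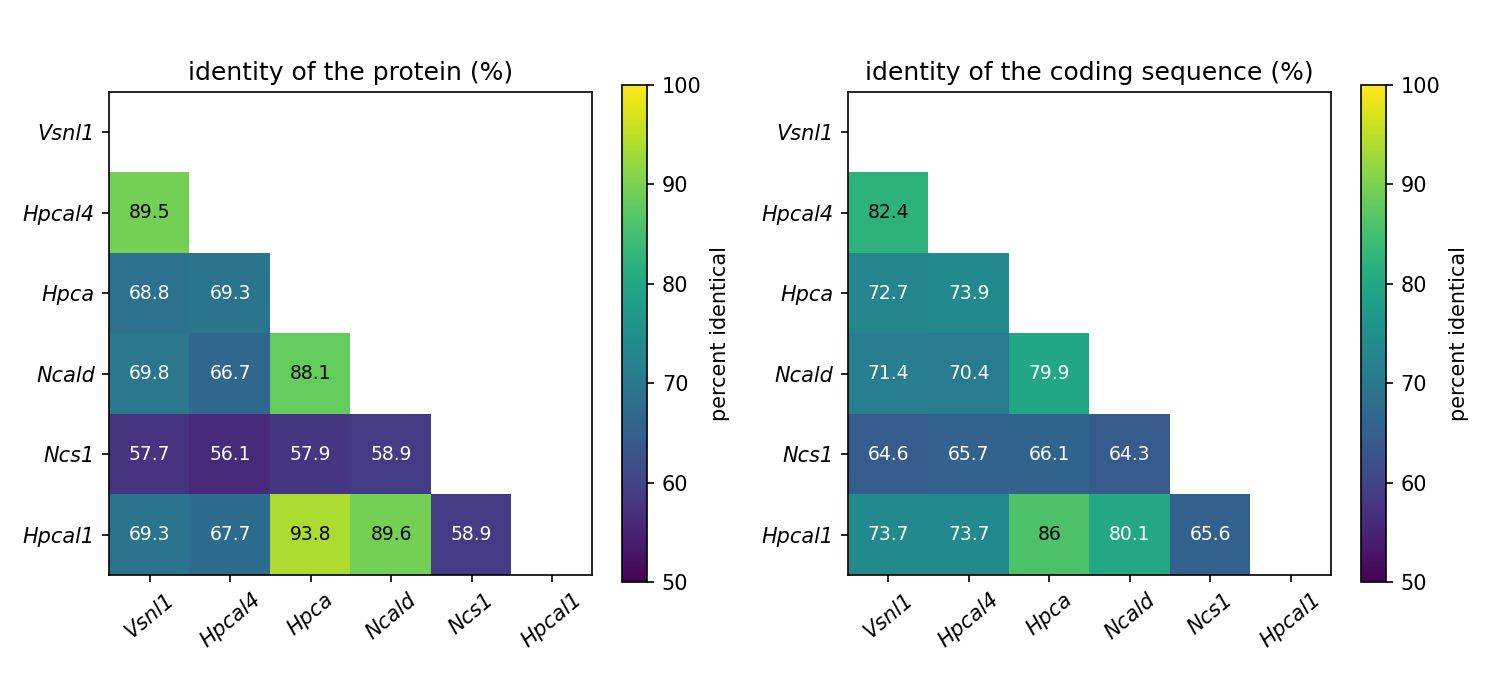
Percent identity between each pair of the 6 proteins (left) and of their coding sequences (right), from global alignments of the longest coding transcript of each gene. The protein pairs among Hpca, Hpcal1 and Ncald and the pair Vsnl1 and Hpcal4 lie at 88.1% or above, and every protein pair with Ncs1 lies at 58.9% or below; coding pairs with Ncs1 lie at 64.3% to 66.1%.

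The genes lie on 4 chromosomes of GRCm38. Vsnl1 (chromosome 12, 11325242 to 11436613, minus strand) and Hpcal1 (chromosome 12, 17690856 to 17791933, plus strand) are 6.25 Mb apart. Hpcal4 (chromosome 4, 123183227 to 123194701, plus strand) and Hpca (chromosome 4, 129111570 to 129122036, minus strand) are 5.92 Mb apart. Ncald lies on chromosome 15 (37366175 to 37792570, minus strand) and Ncs1 on chromosome 2 (31245823 to 31295989, plus strand). Coding bases are a small part of each transcript. They make up 11.6% of the longest coding transcript of Hpcal4, 12.3% for Ncs1, 15.5% for Ncald, 30.1% for Vsnl1, 31.3% for Hpca and 37.9% for Hpcal1, and most of the remainder is 3′ UTR. Annotated exons of another gene overlapped 1.95% of the exon bases of Hpca, where the opposite-strand gene Tmem54 meets it, and 4.04% and 3.33% of those of Ncald, at Gm28221 and Gm49397. Exons of the other 4 genes overlapped none.

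Summed over genes, the depth was 11602248 counts in replicate 1, 13635132 in replicate 2 and 14174384 in replicate 3. All 6 genes reached 1 CPM in every library, against 37.3% of the 32531 genes in the tables. CPM are counts per 1000000 of the TMM-scaled library size. Values are mean ± SD over n = 3 libraries, and levels of different genes were compared per kilobase of union exon length. Cortical identity of the material was checked on fixed markers. The 6 glutamatergic markers summed to between 7002 and 9519 CPM. Most of this was Camk2a, at a mean of 6526 CPM, with Slc17a7 at 250 and Tbr1 at 179 CPM. The 6 GABAergic markers summed to between 1601 and 1841 CPM and the 6 microglial ones to between 40 and 59.3 CPM. The 8 astrocyte markers summed to between 2531 and 4066 CPM. Most of this was Slc1a2, Glul and Aldoc, at means of 1332, 1324 and 528 CPM. Aldh1l1, Gja1 and Gfap were at 7.45, 16.9 and 12.7 CPM. A few genes carry such sums, so they do not compare the amounts of cell types. Markers of the hippocampal dentate gyrus, a neighbouring region rich in some of these sensors, summed to between 14.5 and 23.7 CPM over 4 genes, of which Prox1 alone passed the count filter. The 3 choroid plexus markers summed to 3.93, 45.9 and 5.60 CPM in replicates 1, 2 and 3. Among them Ttr had 0, 569 and 0 counts, Kl was at 3.93, 3.98 and 5.60 CPM, and Folr1 was at 0 throughout.

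Vsnl1 took most of the family's RNA, and Hpcal1, one of its visinin-like relatives, was lowest. Per kilobase of union exon the order was Vsnl1, Hpcal4, Hpca, Ncald, Ncs1 and Hpcal1, the same in 3 of 3 libraries. The ends of this order were 1479.9-fold apart (log2 ratio 10.53 ± 0.24). In a bulk immunoprecipitate, more cells that contain a transcript and more transcript per cell cannot be told apart.

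**Figure D2:**
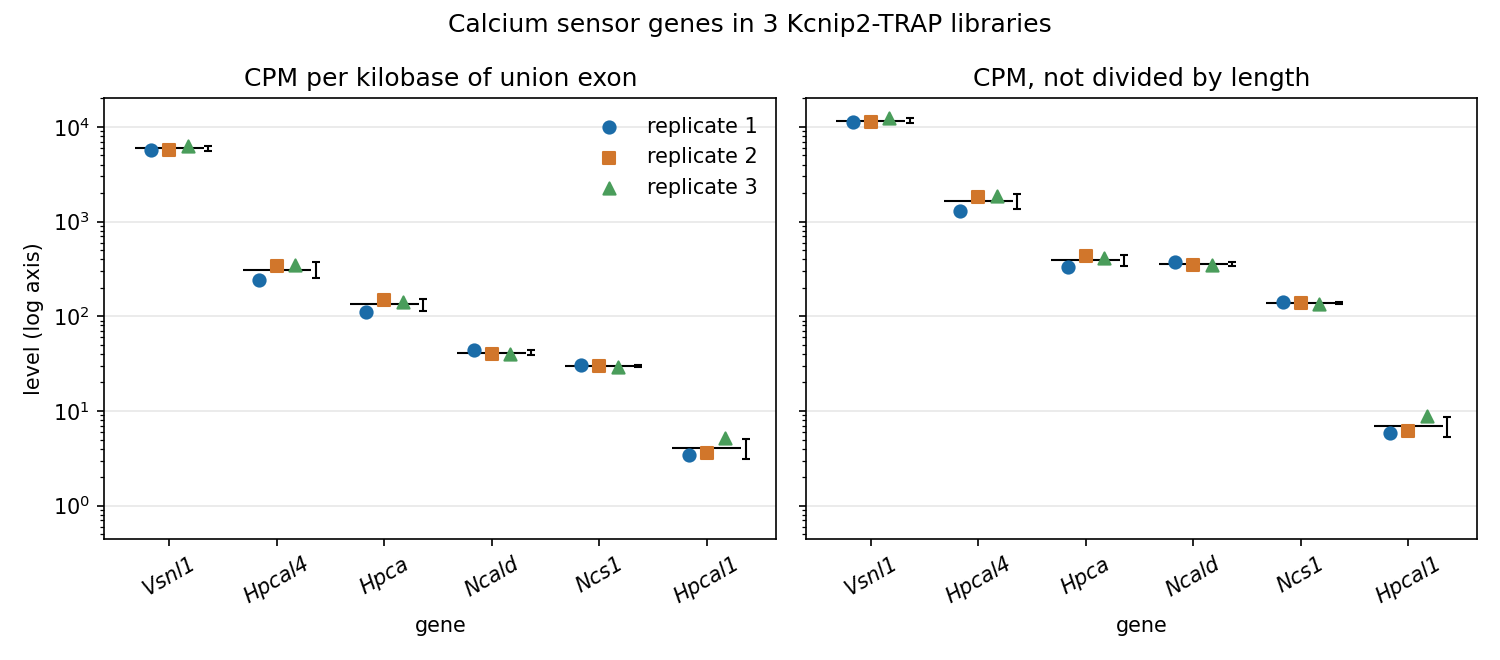
Level of each gene in the 3 libraries, as CPM per kilobase of union exon (left) and as CPM not divided by length (right), both on log axes; points are libraries, horizontal lines the means and bars ± SD. The left panel shows Vsnl1 at 5929 and Hpcal1 at 4.07 CPM per kilobase, and in the right panel the points of Hpca and Ncald overlap.

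Vsnl1 encodes VILIP-1, a sensor that is widespread in brain neurons and is also followed in cerebrospinal fluid as a marker of neuronal injury. It had 132121, 150933 and 174802 counts, which made 11274, 11128 and 12392 CPM in replicates 1, 2 and 3. Replicate 3 was highest, and the other libraries lay close to each other. Its mean was 11598 ± 691 CPM, or 5929 ± 354 CPM per kilobase of union exon. Vsnl1 alone made up 1.16% ± 0.0657 of all gene counts.

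Hpcal4, which encodes VILIP-2, was next. It had 1296 CPM in replicate 1, 1806 in replicate 2 and 1874 in replicate 3, a mean of 311 ± 59.2 CPM per kilobase of union exon. Replicate 1 stood below both others, by 1.45-fold against the highest. Vsnl1 exceeded Hpcal4, its closest relative by sequence, 19.3-fold per kilobase (log2 ratio 4.27 ± 0.26, higher in 3 of 3 libraries).

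Hpca, the gene of hippocalcin, came after Hpcal4. Hippocalcin is known from hippocampal pyramidal cells, where it takes part in the slow afterhyperpolarization that follows spike trains. Hpca was at 328, 431 and 413 CPM in replicates 1, 2 and 3, with replicate 1 again below the others, and averaged 134 ± 18.9 CPM per kilobase of union exon. Hpcal4 exceeded it by a log2 ratio of 1.21 ± 0.10 per kilobase, in 3 of 3 libraries.

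Ncald encodes neurocalcin delta, which binds clathrin and tubulin. It was at 377 CPM in replicate 1, 344 in replicate 2 and 346 in replicate 3, and its mean was 41.4 ± 2.20 CPM per kilobase of union exon. Here replicate 1 was the highest library, unlike in Hpca and Hpcal4. Hpca exceeded Ncald 3.21-fold per kilobase (log2 ratio 1.68 ± 0.29), in 3 of 3 libraries.

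Hpcal1, which encodes VILIP-3, a sensor known from cerebellar Purkinje cells, had the fewest counts of the 6 genes in every library. They were 68, 83 and 124 in replicates 1, 2 and 3, or 5.80 CPM (95% exact Poisson interval 4.51 to 7.36), 6.12 CPM (4.87 to 7.59) and 8.79 CPM (7.31 to 10.5). The intervals cover counting error only, and that of replicate 3 met those of both others at its lower end. Its mean was 4.07 ± 0.968 CPM per kilobase of union exon, against a median of 4.53 over the 12103 tested genes with a length. Hpca, which encodes the protein most like VILIP-3, exceeded Hpcal1 33.2-fold per kilobase (log2 ratio 5.05 ± 0.29). A count of 0 would have allowed 0.213 to 0.256 CPM, so Hpcal1 lay above that limit in each library. That limit covers counting only. RNA carried over from cells without the tag was not measured, so a level this low does not place Hpcal1 in the tagged cells. Of the 50-base stretches of the longest coding transcript, 7.18% for Hpcal1, 11.3% for Ncald and 1% for Hpca also occur in genes outside the family, and none for the other genes. For Ncald the only such genes are Gm28221 and Gm49397, which overlap its own exons and have no row under these symbols in the count tables. A read within a stretch that also occurs at another locus cannot be assigned by its sequence.

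Ncs1 encodes the sensor that binds phosphatidylinositol 4-kinase beta and dopamine D2 receptors and acts on transmitter release. Ncs1 was at 142, 137 and 135 CPM in replicates 1, 2 and 3, the narrowest spread of the 6 genes. Its mean was 29.7 ± 0.773 CPM per kilobase of union exon. Ncald exceeded it by a log2 ratio of 0.48 ± 0.04 per kilobase, 1.39-fold, and Ncs1 exceeded Hpcal1 by 2.89 ± 0.36.

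Each of the 5 ratios between neighbours in the order was larger than its SD over libraries and had the same sign in 3 of 3 libraries. The exact two-sided sign-flip test gave p = 0.25 for each, the smallest that 3 libraries allow, so none could reach the 0.05 threshold. The sizes depended on the length used. By counts alone, which for these genes differs little from dividing by coding length (570 to 579 bases), Hpca and Ncald were not separated: the log2 ratio was 0.13 ± 0.29 and Hpca was higher in 2 of 3 libraries, not in replicate 1. Divided by the longest coding transcript, Ncald was at 95.3 CPM per kilobase, against 41.4 by its union exons, which span 8581 bases where that transcript has 3733, and the log2 ratio of Ncald to Ncs1 was 1.68. The order of all 6 means was the same by every length.

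As shares of the counts of the 6 genes, Vsnl1 had 82% ± 1.85, Hpcal4 11.7% ± 1.79, Hpca 2.76% ± 0.335, Ncald 2.52% ± 0.269, Ncs1 0.981% ± 0.0848 and Hpcal1 0.0485% ± 0.00824. Per kilobase of union exon, the share of Vsnl1 was 92% ± 0.991. Together the 6 genes made up 1.36% of gene counts in replicate 1, 1.38% in replicate 2 and 1.51% in replicate 3.

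In the ranking of the 12103 tested genes with a length, Vsnl1 was first per kilobase of union exon, at 5929 CPM per kilobase. The synaptic fusion protein gene Snap25 followed at 4934, divided by union exons of 6791 bases, where its longest coding transcript has 2116. Divided by the longest coding transcript, Snap25 was first and Vsnl1 second, at 15835 and 6094 CPM per kilobase. By counts, Snap25 was at 33507 CPM and Vsnl1 at 11598. Rn45s, the ribosomal RNA precursor, is also above Vsnl1 by counts and has no length here. Hpcal4 was at rank 55 per kilobase of union exon, Hpca at 158, Ncald at 816, Ncs1 at 1282 and Hpcal1 at 6414. The rank of Hpcal1 was lower by other measures, at 7248 when divided by the longest coding transcript and at 9308 of 12509 genes by CPM. The ranks between also depended on the measure. Divided by the longest coding transcript, Hpcal4 was at 72, Hpca at 139, Ncald at 433 and Ncs1 at 1887. By CPM, Hpcal4 was at 49, Hpca at 399, Ncald at 462 and Ncs1 at 1494.

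**Figure D3:**
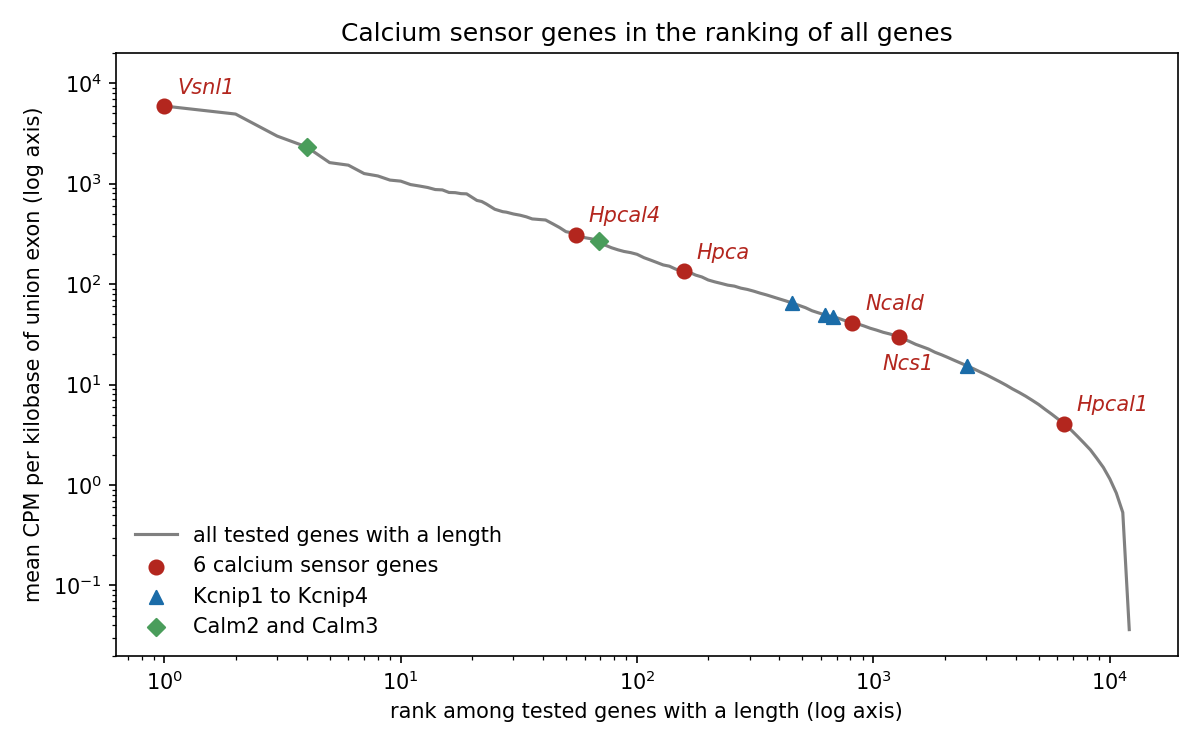
Mean CPM per kilobase of union exon against rank among all tested genes with a length, both on log axes; red circles are the 6 calcium sensor genes, blue triangles Kcnip1 to Kcnip4 and green diamonds Calm2 and Calm3. Vsnl1 lies above both Calm2 and Calm3, and Hpcal1 lies below all KChIP genes.

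Among the other members of the neuronal calcium sensor family, the 4 KChIP genes were measured and the retinal sensors were near or at 0. Kcnip3 was at 64.9 ± 12.3, Kcnip4 at 49.3 ± 3.40, Kcnip2, the gene whose regulatory sequences drive the tag, at 47.3 ± 6.33 and Kcnip1 at 15.3 ± 1.32 CPM per kilobase of union exon. Vsnl1 exceeded Kcnip2 126-fold per kilobase (log2 ratio 6.98 ± 0.25), and Hpcal4 and Hpca exceeded each of the 4 KChIP genes in 3 of 3 libraries. Ncald lay below Kcnip2, Kcnip3 and Kcnip4 in 3 of 3 libraries per kilobase of union exon, but above Kcnip2 and Kcnip4 in 3 of 3 when divided by the longest coding transcript. By counts alone, Ncald lay above all 4 KChIP genes in 3 of 3 libraries. Ncs1 lay below Kcnip2, Kcnip3 and Kcnip4, and Hpcal1 below all 4, in 3 of 3 libraries by either length. Against Kcnip1, Ncs1 was higher in 3 of 3 libraries per kilobase of union exon (log2 ratio 0.96) but lower in 3 of 3 when divided by the longest coding transcript (-0.46). The 4 KChIP genes summed to 640, 673 and 693 CPM in replicates 1, 2 and 3, against 13423, 13852 and 15168 CPM for the 6 visinin-like and NCS1 genes. Rcvrn (recoverin, the photoreceptor sensor) had 0, 5 and 0 counts, and the guanylate cyclase activator genes Guca1a and Guca1b had 0, 0 and 0 and 6, 16 and 2.

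Against other EF-hand proteins of neurons, Vsnl1 stood above the calmodulin genes Calm2 and Calm3. Calm2 was at 2321 ± 328 and Calm3 at 269 ± 11.6 CPM per kilobase of union exon, both from a list of 17 EF-hand sensors and buffers. Vsnl1 exceeded Calm2 in 3 of 3 libraries by a log2 ratio of 1.36 ± 0.13 per kilobase. Hpcal4 and Calm3 were not separated per kilobase, with a log2 ratio of 0.19 ± 0.35 and Hpcal4 higher in 2 of 3 libraries. Hpca and Pvalb, the parvalbumin gene, were not separated per kilobase either (0.07 ± 0.71). Both results depended on the length. By counts alone, Hpcal4 exceeded Calm3 by a log2 ratio of 1.33 and Hpca exceeded Pvalb by 1.56, each in 3 of 3 libraries. Cabp7 was the lowest of the list, at 0.128 ± 0.111 CPM per kilobase. Of the 17 genes, 14 passed the count filter.

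Enzymes and binding partners of these sensors ranged from 0 to 37.7 CPM per kilobase of union exon. The N-myristoyltransferase genes Nmt1 and Nmt2, whose products attach the lipid, were at 10.9 ± 0.657 and 18.7 ± 1.79 CPM per kilobase of union exon. Of 15 genes of reported partners and effectors, 14 passed the count filter. The highest were Itpr1, the type 1 inositol trisphosphate receptor, at 37.7 ± 2.54, Cltc, the clathrin heavy chain, at 37.5 ± 3.51, and Ap2b1, a clathrin adaptor subunit, at 36.7 ± 3.38 CPM per kilobase. Pi4kb, the lipid kinase that NCS1 binds, was at 4.04 ± 0.676. Drd2, the D2 receptor gene, had 80, 260 and 156 counts in replicates 1, 2 and 3 and was at 4.85 ± 2.46 CPM per kilobase. P2rx2, an ATP-gated channel gene, had 0 counts in all 3 libraries.

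Variation between libraries was the remaining comparison that 1 group allows. It was tested with edgeR's quasi-likelihood fit over 12509 genes, in which a gene's dispersion between libraries is set against that of genes of the same level. None of the 6 genes passed at an adjusted p of 0.05, where 12 of all 12509 genes did (0.0959%). At an unadjusted p under 0.05 there was 1 of 6, Hpcal4, against 5.78% of all genes. DESeq2 called none of the 6 a dispersion outlier, where it called 28 genes (0.224%). Hpcal4 had the largest ratio of its dispersion to the trend (F = 5.01, edgeR adjusted p = 0.702), followed by Hpca (F = 2.52, edgeR adjusted p = 0.938). Vsnl1, Hpcal1, Ncald and Ncs1 had ratios of 0.453, 0.618, 0.326 and 0.0661 (edgeR adjusted p = 0.997 each), below the trend. The order of these ratios rests on single libraries. Without replicate 1, the ratios of Hpcal4 and Hpca were 0.184 and 0.194, below the 1.64 of Vsnl1 and the 0.884 of Hpcal1. Without replicate 2, that of Hpcal1 was 1.14. Ncald and Ncs1 stayed below the trend without any 1 library, at no more than 0.416 and 0.0849. Of the genes related by function, none passed the edgeR test among 4 KChIP genes, 14 other EF-hand genes, 14 partner genes and both N-myristoyltransferase genes. At an unadjusted p under 0.05 there was 1 each in the first 3 of these lists, Kcnip3, Pvalb and Drd2, and DESeq2 called 1 gene of these lists, Pvalb, a dispersion outlier.

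The CV over libraries was 2.60% for Ncs1, 5.30% for Ncald, 5.96% for Vsnl1, 14.1% for Hpca, 19.0% for Hpcal4 and 23.8% for Hpcal1. The median over all tested genes was 15.2%. A CV under 10% was found in 3 of the 6 genes and in 30.3% of all genes. Counting error alone would give 2.35% for Ncs1 and 10.4% for Hpcal1, and at most 1.47% for the other 4 genes. The spread of Ncs1 was thus about that of counting.

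**Figure D4:**
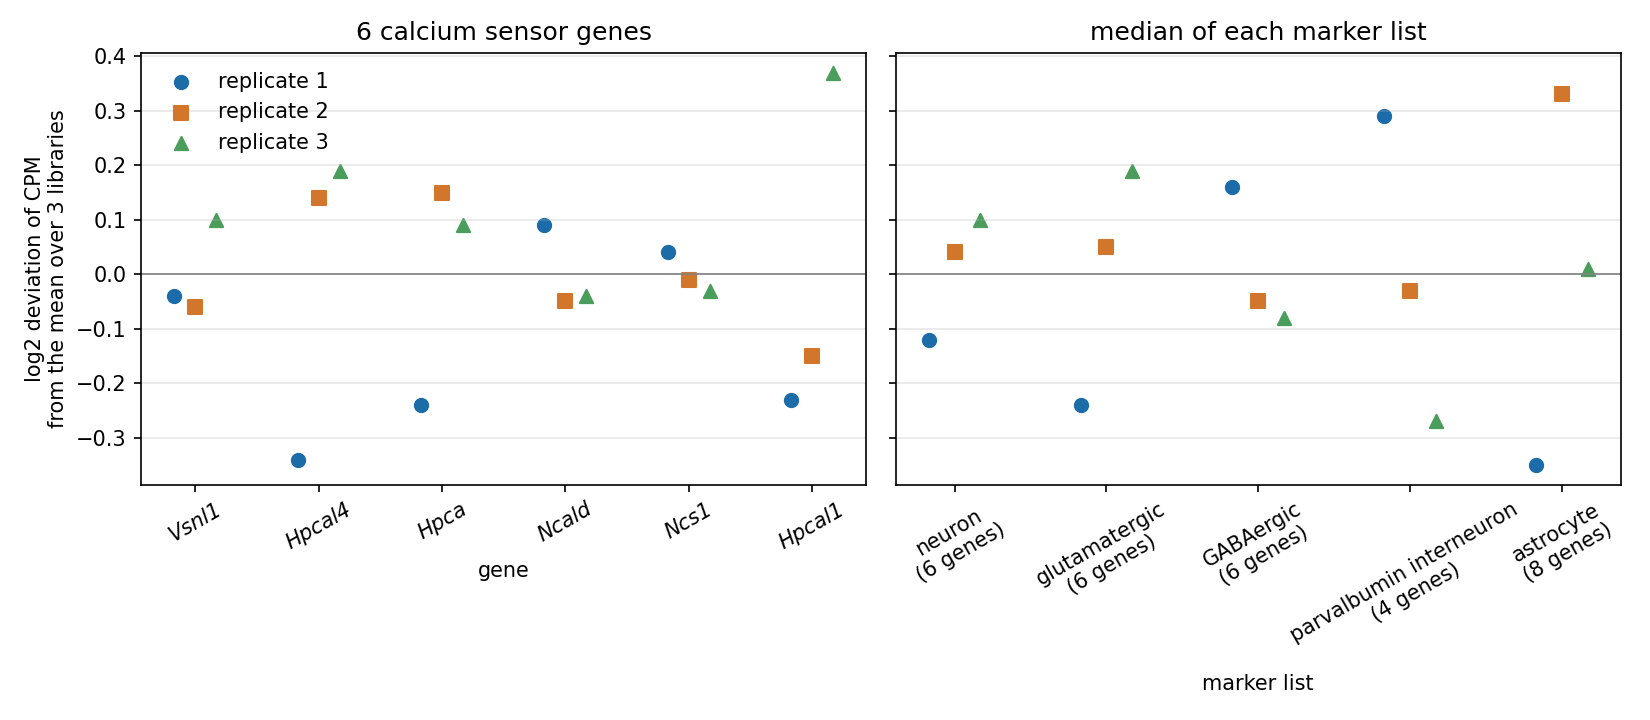
Deviation of each gene's log2 CPM from its own mean over the 3 libraries (left) and the median deviation of the genes of each marker list past the count filter (right); colours and shapes are replicates. Hpcal4, Hpca and Hpcal1 are lowest in replicate 1, at -0.34, -0.24 and -0.23, while Ncald and Ncs1 are highest there, at 0.09 and 0.04.

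The highest and lowest library differed between genes, none of which passed the variation test. Some of these placings lay within counting error. Every pair of libraries overlapped in the 95% exact Poisson intervals of Ncs1 and Hpcal1. For Ncs1 they were 135 to 149, 131 to 144 and 129 to 141 CPM in replicates 1, 2 and 3. For Hpcal1 they were 4.51 to 7.36, 4.87 to 7.59 and 7.31 to 10.5 CPM. Those of Hpca and Ncald overlapped in replicates 2 and 3, and those of Vsnl1 and Hpcal4 in none. Hpcal4, Hpca and Hpcal1 were lowest in replicate 1, with log2 deviations of -0.34, -0.24 and -0.23 from their own mean, and 36.4% of all genes were lowest there. Vsnl1 and Ncald were lowest in replicate 2 (32.2% of all genes) and Ncs1 in replicate 3 (31.4%). Ncald and Ncs1 were highest in replicate 1, by 0.09 and 0.04, as were 36.6% of all genes. Hpca was highest in replicate 2 (32.4% of all genes), and Vsnl1, Hpcal4 and Hpcal1 in replicate 3 (31%), by 0.10, 0.19 and 0.37. The ratio of Hpcal4 to Hpca kept within an SD of 0.10 and that of Ncald to Ncs1 within 0.04 on the log2 scale. The ratio of Hpcal4 to Ncald varied more, with an SD of 0.37.

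Marker levels also differed between the same libraries. Of all genes, 36.4% were lowest and 36.6% were highest in replicate 1. Of 6 general neuron markers, 5 were lowest in replicate 1, with sums of 38212, 40810 and 44246 CPM in replicates 1, 2 and 3. All 6 glutamatergic markers were lowest in replicate 1, where they summed to 7002 CPM, against 8570 and 9519 in replicates 2 and 3. Of 6 GABAergic markers, 5 were highest in replicate 1, with sums of 1841, 1601 and 1648 CPM, and 4 of 4 parvalbumin interneuron markers were highest there, with sums of 920, 739 and 666 CPM. Of 8 astrocyte markers, 6 were lowest in replicate 1, with sums of 2531, 4066 and 3416 CPM. The 7 oligodendrocyte markers summed to 563, 663 and 485 CPM, and 3 of the 6 past the count filter were lowest in replicate 1. No gene of these marker lists passed the variation test. All 5 nuclear RNAs were highest in replicate 1, and their sums were 10651, 3527 and 2431 CPM. Of these, Malat1, Meg3 and Snhg11 passed the variation test (edgeR adjusted p = 6.42e-09, 0.0131 and 5.17e-09), as did 0.0959% of all genes tested. Prox1, the dentate gyrus marker past the count filter, was at 17.7, 17.9 and 13.1 CPM, and the other 3, C1ql2, Dsp and Tdo2, had at most 33, 24 and 14 counts in a library, each in replicate 1. The part of these differences in the values of Hpcal4 and Hpca was not tested.

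Some genes had nearly the same pattern over the 3 libraries, measured as the root mean square difference in log2 deviation. For Vsnl1 they were Mau2, a cohesin loader (0.0009), and Mad2l1, a spindle checkpoint gene (0.002). For Hpcal4 they were Clstn1, which encodes calsyntenin 1 (0.0024), and Tram1 (0.004), and for Hpca Syvn1, an endoplasmic reticulum ubiquitin ligase (0.0023), and Igfbp5 (0.003). Pcyt1a and Ltn1 were nearest to Ncald (0.0023 and 0.0032), Mrpl30 and Smarcc1 to Ncs1 (0.002 and 0.0029), and Bcas3 and Erich3 to Hpcal1 (0.011 and 0.016). With 3 libraries, such matches are common. Of 8101 genes searched, 26.7% lay within 0.1 of Vsnl1, 7.20% of Hpcal4, 14.2% of Hpca, 27.9% of Ncald and 31.0% of Ncs1, and 2.52% of 8102 lay within 0.1 of Hpcal1.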

How the data were processed

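RNA was sequenced in 3 immunoprecipitate libraries of 1 group, as the titles give it. The libraries also held nuclear RNA and ribosomal RNA precursor, with Malat1 at rank 10 and Rn45s at rank 2 by CPM. The share of the RNA that was bound to ribosomes was not tested. The deposited tables hold raw counts per gene symbol, not normalized. The submitters' processing notes name STAR 2.0.0e, HTSeq and mm10. How HTSeq treated strand and overlaps, the read length and the annotation release were not given in the sources used here. Whether reads of a gene and its antisense partner were counted apart is thus not known. Of all tallied reads, 61.9% to 70.7% fell in genes, 12.8% to 16.4% outside any feature, 2.37% to 2.65% were ambiguous and 13.8% to 19.4% not unique. The row "unknown" held 0 reads, and these rows were left out. Libraries differed by more than sampling noise (chi-square of 12.3 to 28.5 per degree of freedom), so none is a second sequencing of another. Separate preparations from the same animal could also differ by more than sampling noise, so this does not show that the animals were separate.

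CPM used TMM-scaled library sizes (edgeR 4.0.16, R 4.3.3). Lengths came from GENCODE M21, with 23161 of 32531 rows matched by symbol and 772 by an older symbol. Genes past filterByExpr (minimum count 10) entered an intercept-only, robust quasi-likelihood fit. The F ratio of quasi-dispersion to trend was Benjamini-Hochberg adjusted over 12509 genes. The call procedure was run on simulated data, with every gene at the dispersion trend and shifts in a single library larger than those of the 6 genes. It thus cannot tell whether differences as small as theirs would be called. Alternatives were DESeq2 1.42.0, its size factors, no count filter, no robust estimation, other lengths, a prior count of 2, and leaving out each library. Sequences were aligned with Biopython 1.88. The EF-hand pattern is that of PROSITE.

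The 6 genes, the lists and the tests were chosen with earlier results of these data known. All 6 genes are named. Of each list of related genes (family, EF-hand, partners, N-myristoyltransferases), the 3 highest per kilobase, the lowest and any called gene were named, and others where a sentence needed them; marker lists are given by their sums, with genes named where a sentence turns on them; items withheld from the text are not reported here. For likeness, the 2 nearest genes at 10 CPM or more were named, clones skipped.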

Additional observations from a re-analysis of the deposited data

How the results depend on the processing

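No paired analysis was possible because there is 1 group. None of the 6 genes passed the edgeR variation test under any of the 6 other settings of that fit, and the smallest adjusted p was 0.408 (edgeR); DESeq2 called 0 as well. The count over all genes was 12 and depended on the setting: 66 with no count filter, 5 without robust estimation, 28 by DESeq2, and 4 to 10 when 1 library was left out, with 4 without replicate 2. The 6 genes and the lists of related genes held 40 tested genes, not all named here. Of their 240 ratios of dispersion to trend, 239 stayed on their side of the threshold. Pvalb passed with no count filter (edgeR adjusted p = 0.00369). None of 35 neighbour ratios changed sign, but most could not. Each ratio had the same sign in every library, so leaving a library out could not reverse it. Library scaling cancels in a ratio within a library, and a prior count of 2 is small against these counts. The settings that change the length could have reversed a sign. Per kilobase of the longest coding transcript, Hpca was at 211 and Ncald at 95.3. With no division by length, the means were 11598 CPM for Vsnl1, 1658.5 for Hpcal4, 391 for Hpca, 356 for Ncald, 138 for Ncs1 and 6.90 for Hpcal1. The level of Hpcal1 rests on 68 to 124 counts a library, and a union exon length is not the length of the transcript translated here.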
